A study of Sus scrofa domesticus with 6 samples.

Results

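The genes described here are 34 genes of glycolysis and of the cellular response to low oxygen, chosen by name. They comprise the enzymes that convert glucose to lactate, carriers of glucose and lactate, and genes outside glycolysis that hypoxia-inducible factor (HIF) is known to switch on. Of the 34, 31 were listed under exactly that symbol in all 6 libraries, and LDHA and MXI1 were listed under their Ensembl identifiers, ENSSSCG00000013366 and ENSSSCG00000022128. That left 33 of 34 measured, among 33025 genes listed in at least 1 library. SLC2A3 was not analysed here.

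The libraries came from an orthotopic single-lung transplant model of cold ischemia-reperfusion injury (IRI) in domestic pigs (Sus scrofa domesticus). The control group was 3 libraries of the whole cell suspension from donors' right lungs, which were not transplanted. The IRI group was the transplanted lung after 24 h of cold ischemia and 8 h of warm reperfusion, stained with an antibody to CD45, a surface antigen of blood-derived cells, and with a viability dye. CD45+ cells were sorted for 2 IRI libraries and CD45- cells for 1, whereas control cells were not sorted, so that injury and sorting cannot be told apart in any comparison of control with IRI. The sources used here give no strain, age or sex and do not tie a graft to its donor lung. The p-values below measure the spread between these libraries or, in the contrast of myeloid with lymphoid classes, between classes within them, and not between animals.

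When oxygen falls, prolyl hydroxylases no longer mark the HIF alpha subunits for destruction. Stabilised HIF then raises transcription of glucose carriers, of nearly every glycolytic enzyme, of kinases that keep pyruvate out of mitochondria, and of secreted factors that open or build vessels. In the lung, glycolysis is the main energy route of neutrophils and of activated macrophages, while resting structural cells rely more on mitochondrial respiration. HIF1A protein is controlled mostly by degradation, so its transcript is no measure of its activity.

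The libraries held 19098567 to 40647380 unique molecular identifiers (UMIs, counted RNA molecules), and 40782 of 43322 deposited cells were kept. Kept cells had a median of 2969.0 to 3199.0 UMIs in controls, 2962.5 and 2900.0 after the CD45+ sort and 1964.0 after the CD45- sort. The shallowest deposited cell held 1001 UMIs in each control, 117 in the CD45- library, and 74 and 115 in CD45+ 1 and 2. With the cut at 500 UMIs used here, cells below 1001 UMIs were thus kept from the IRI libraries only. The stricter cell filter used as an alternative asked for at least 1000. Cells were clustered without the 33 genes, and a cluster was named "-like" after a class only from marker genes. Levels are CPM (the UMIs of a gene, summed over the cells of a class in a library, scaled to the usual CPM total over the 23556 genes listed in all 6 libraries). A level can be compared between classes or libraries but not between genes. Glycolytic enzymes such as GAPDH, ENO1, PGK1 and LDHA have near-identical processed copies in mammalian genomes, and how reads were split among such copies is not stated, so their levels carry that uncertainty. T-like, NK-like, B-like and plasma-like cells of control and graft mostly lay in different clusters (clusters 7 and 4, 2 and 6, 16 and 13, 12 and 29), as did fibroblast-like cells (3 in controls, 15.2 and 15.3 in the graft) and endothelial-like cells (24 and 20). Macrophage-like, monocyte-like, dendritic-like, mast- or basophil-like and ciliated-like clusters held cells of both. Genes with the largest fold over other clusters included CD40LG, ICOS, CTLA4 and LAG3 in T-like cluster 7, and LEF1, IL7R and S1PR1 in cluster 4. They included CRTAM and KLRK1 in NK-like cluster 2, and PRF1, GZMB and IL12RB2 in cluster 6. Rises and falls given below for classes split in this way compare unlike clusters. Whether a change lay within a cell type or between subsets was not tested. The alveolar type 1 (AT1)-like, alveolar type 2 (AT2)-like and secretory-like classes were compared with no control, since controls held at most 26 such cells in a library.

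In control lung, immune classes together carried far more glycolytic enzyme transcript than structural classes. The summed level of the 14 glycolytic enzymes was 3550, 3762 and 3346 CPM in the immune sums of controls 1, 2 and 3, and 1639, 1538 and 1272 in their structural sums. Every control had the higher value on the immune side. The 12 HIF targets outside glycolysis lay the other way, at 625, 689 and 717 in the immune sums and 1038, 1365 and 1173 in the structural sums. Fibroblast-like cells made up most of the structural sums, and ADM alone gave 364, 635 and 465 of the second total.

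Tested gene by gene with the library as a block (edgeR quasi-likelihood test, Benjamini-Hochberg adjusted over all genes, threshold 0.05), 23 of 33 genes were lower and 6 higher in the structural than in the immune sums of the controls. Over all 15561 genes tested, 31.5% were lower and 32.5% higher. The median difference was -1.02 on the log2 scale for the 33 genes and 0.02 for all genes. Of the 19 genes of glycolysis, transport and its regulation, 17 were lower and 1 higher, and of the 14 HIF genes and targets, 6 were lower and 5 higher. PFKFB3, which makes the activator of phosphofructokinase, stood at 29.7 CPM on average in control fibroblast-like cells and at 552 in control B-like cells. Its difference was -2.66 ± 0.10 SE (adjusted p = 3.64e-07). LDHA, which turns pyruvate into lactate, differed by -2.52 ± 0.13 (adjusted p = 1.8e-06). ENO1, PGK1 and PGAM1, enzymes of the lower glycolytic path, differed by -1.69 ± 0.09, -1.50 ± 0.10 and -1.44 ± 0.10. GAPDH, the glyceraldehyde-3-phosphate dehydrogenase, differed by -1.61 ± 0.09 (adjusted p = 2.06e-06).

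The 6 genes higher in control structural cells were ADM, P4HA2, P4HA1, BNIP3L, BNIP3 and PFKL. ADM encodes adrenomedullin, a peptide that widens vessels and tightens their barrier. It stood at 545, 782 and 544 CPM in fibroblast-like cells of controls 1 to 3, and at 5.69, 7.59 and 5.73 in T-like cells. All fibroblast-like values lay above all T-like values, and the structural-immune difference was 3.30 ± 0.13 (adjusted p = 3.86e-07). P4HA2, a prolyl 4-hydroxylase that collagen needs to fold, had the widest range over control classes, from 0 in monocyte-like cells to 165 in fibroblast-like cells. Its structural-immune difference was 4.43 ± 0.22 (adjusted p = 2.11e-06). ALDOA, an aldolase, and PKM lay on the immune side as well, ALDOA at 233, 239 and 219 in the immune and 135, 118 and 97.5 in the structural sums. Calls for BNIP3 and PFKL were lost when control 3 was left out, at 0.41 (adjusted p = 0.07) and 0.42 (adjusted p = 0.07), and that for BNIP3 also without control 2, at 0.49 (adjusted p = 0.059). Among the genes lower in structural sums, HK1 lost its call without control 1 or control 3 (-0.33 and -0.48, adjusted p = 0.056 and 0.083). KDM3A lost its call without control 2 or control 3 (-0.43 and -0.33, adjusted p = 0.096 and 0.16).

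**Figure D1:**
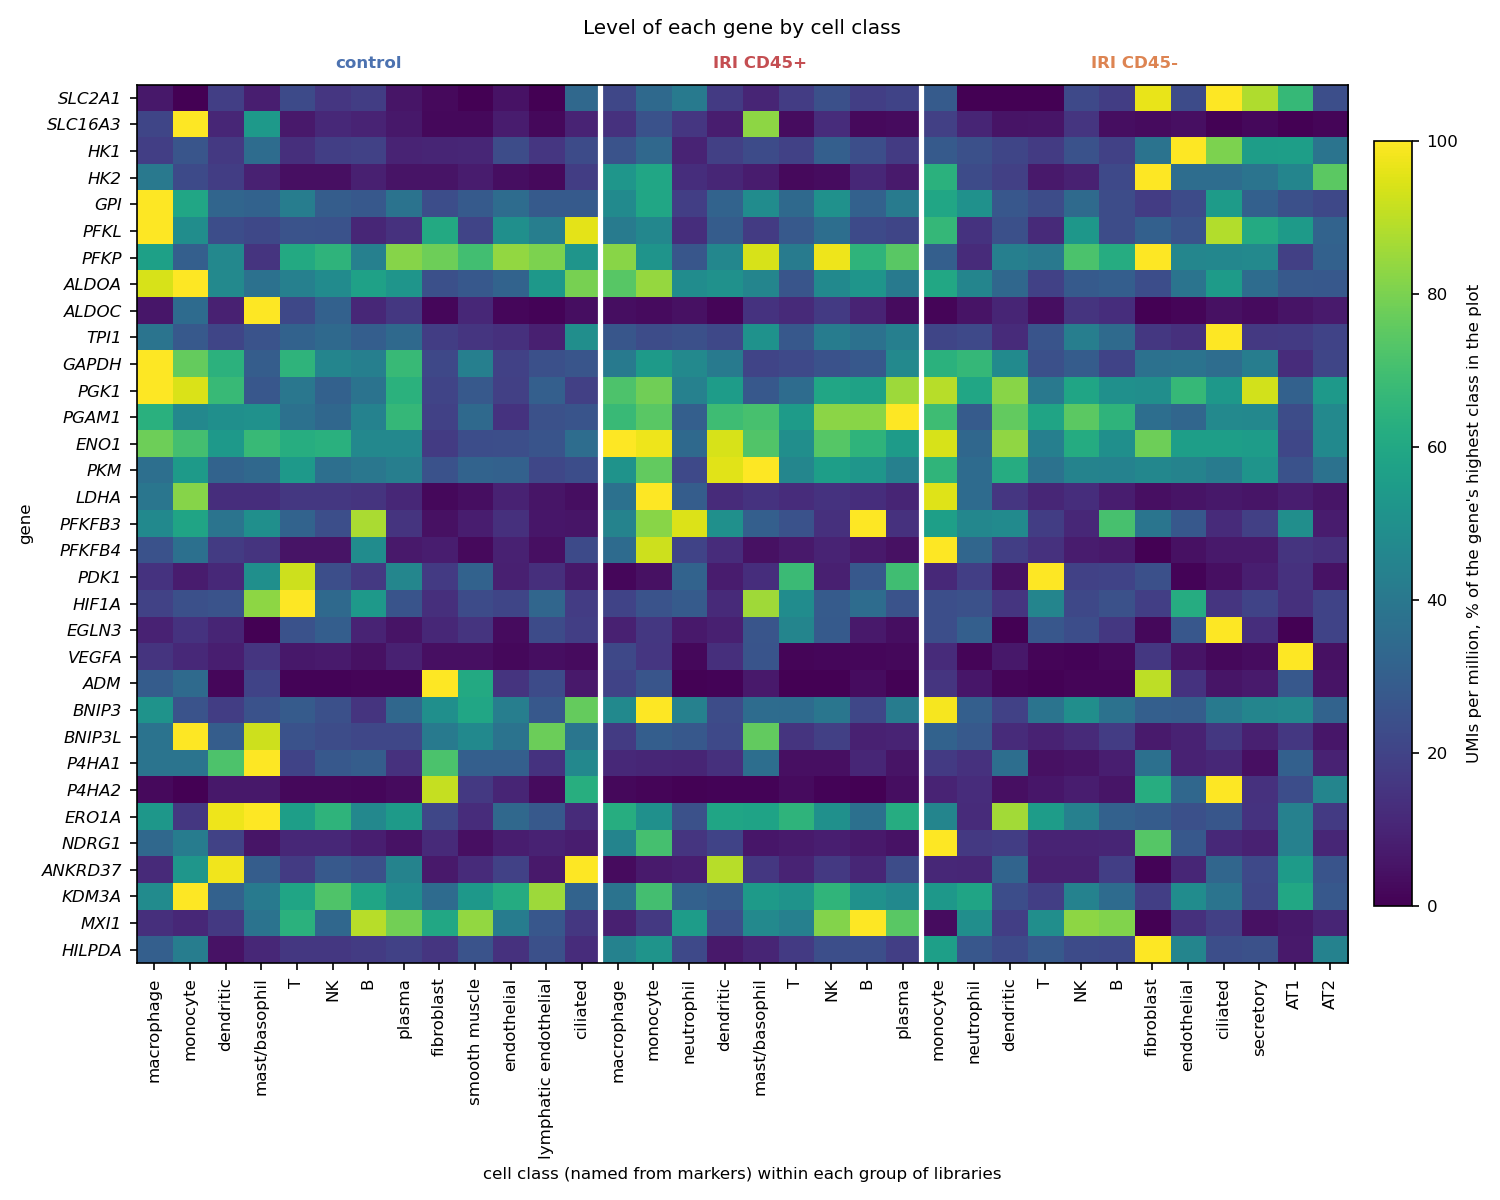
Each row is 1 of the 33 genes and each column a cell class within the controls (mean of up to 3 libraries), the IRI CD45+ libraries (mean of 2) or the single IRI CD45- library; colour is the level in CPM as a percent of the highest class in that row. Monocyte-like cells stand out for LDHA in all 3 groups, fibroblast-like cells for ADM in control and graft, AT1-like graft cells for VEGFA, and graft fibroblast-like cells for HILPDA.

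Single classes stood out for single genes in the controls. Monocyte-like cells had the highest LDHA, at 2019 and 1160 CPM in controls 1 and 2, beside a median of 251 over 13 control classes. The lowest class for LDHA was the fibroblast-like one, at 43.2. SLC16A3, which exports lactate, was also highest there, at 36.7 and 108, from 33 and 32 cells, and the 2 libraries lay far apart. ALDOC, the aldolase isoform best known from brain, was highest in mast- or basophil-like cells at 64.3, 95.5 and 62.0, and at most 27.2 in the T-like, NK-like and B-like cells of any control. EGLN3, the prolyl hydroxylase that HIF itself induces, was highest in NK-like cells at 22.9, 30.001 and 25.0, next to T-like cells at 21.6, 19.4 and 24.8, and the 2 ranges overlapped.

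In controls and in the graft, most of the genes were higher in the mean of the myeloid than of the lymphoid classes. The neutrophil-like class of the graft did not share this for several glycolytic enzymes, as given below. In the controls 20 of 33 were higher and 7 lower (32.3% and 28.4% of 12518 genes), with a median difference of 0.66 for the 33 and -0.01 for all genes. In the IRI CD45+ libraries 18 of 32 tested were higher and 3 lower (22.9% and 28.2% of 10156 genes), with medians of 0.73 and -0.20. Without TMM scaling the graft counts became 14 and 8, and the median of all genes moved to -0.68. The myeloid side was the macrophage-like class alone in the controls and the neutrophil-like, monocyte-like and macrophage-like classes in the graft, against T-like, NK-like and B-like cells in both. These models take each class in a library as a unit, with the library as a block, so their small p-values rest on classes that share a library. HK2, the inducible hexokinase, differed by 2.96 ± 0.16 in controls and 3.40 ± 0.20 in the graft (adjusted p = 4.12e-19 and 3.6e-14). NDRG1, a stress-induced gene that HIF raises, differed by 1.82 ± 0.10 and 2.73 ± 0.16 (adjusted p = 5.64e-19 and 2.31e-14). LDHA differed by 1.38 ± 0.08 and 2.34 ± 0.13. GAPDH differed by 1.06 ± 0.08 and 1.41 ± 0.13, ALDOA by 0.99 ± 0.08 and 1.22 ± 0.13, and VEGFA by 1.42 ± 0.12 and 2.97 ± 0.22. Some genes differed by unlike amounts, such as PFKL (2.45 ± 0.16 in controls, and 0.53 ± 0.27 in the graft, where it did not pass), PFKFB3 (0.29 ± 0.09 and 1.59 ± 0.15) and PFKFB4 (1.30 ± 0.22 and 2.82 ± 0.27), but the classes in the 2 models differ and the gap was not tested. ADM had the largest fitted difference of the 33 in both, 4.82 ± 0.19 and 4.36 ± 0.50. HIF1A was lower in myeloid than lymphoid classes of the controls (-1.45 ± 0.12, adjusted p = 1.59e-13), as was MXI1, a transcriptional repressor of the MYC network (-2.02 ± 0.21).

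Leaving out control 3 also brought the monocyte-like class into the myeloid side. Controls 1 and 2 held 33 and 32 such cells, and control 3 held 14. With both changes, the control calls for ALDOC, ANKRD37, BNIP3, EGLN3, ENO1, P4HA1, PFKFB3, PGAM1, SLC2A1 and TPI1 were lost. TPI1 then turned to -0.15, and which change removed the calls was not tested. The monocyte-like class was in the graft model and not in the main control one, and the neutrophil-like class likewise. Fewer than 20 such cells were left in a control. Graft monocyte-like cells had LDHA at 1642 and 2240, NDRG1 at 394 and 911, and PFKFB4, a second enzyme that sets phosphofructokinase activity, at 53.9 and 137 in CD45+ 1 and 2. For NDRG1 and PFKFB4 the second library was well above the first, and its monocyte-like class held 987 cells against 219. Neutrophil-like cells were lower, with LDHA at 551 and 601 and NDRG1 at 93.2 and 189, and had PFKFB3 at 736 and 464. Their summed glycolytic enzymes, 2470 and 2866, lay below NK-like cells (3165 and 3036) and B-like cells (2947 and 2873). T-like cells, at 1886 and 2598, overlapped with them. Of 9 CD45+ classes, the neutrophil-like one had the lowest mean HK1, GPI, PFKL, PFKP, PGAM1, ENO1 and PKM, and the highest mean SLC2A1.

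In 8 immune classes compared between control and IRI CD45+, glycolytic enzymes moved in both directions, and GAPDH and P4HA1 were the most regular. The share of all tested genes called in the same direction is given in brackets for each class. In macrophage-like cells 0 of 33 rose and 6 fell (11.6% and 16.5%), and in monocyte-like cells 0 of 28 rose and 1 fell (4.73% and 6.26%). In dendritic-like cells 4 of 30 rose and 3 fell (14.7% and 19.7%), and in mast- or basophil-like cells 1 of 17 rose and 2 fell (10.6% and 14.2%). In T-like cells 3 of 33 rose and 9 fell (25.1% and 27.2%), and in NK-like cells 9 of 33 rose and 11 fell (26.2% and 30.3%). In B-like cells 6 of 31 rose and 7 fell (21.4% and 25.0%), and in plasma-like cells 2 of 33 rose and 7 fell (14.8% and 20.9%). The median log2 change of the 33 lay between -0.23 in T-like and 0.35 in monocyte-like cells, beside medians over all genes from -0.25 to 0.17. Leaving out TMM scaling moved the median of all genes by more than 0.1 in some classes and gave 3 higher and 14 lower in T-like cells (ALDOC, MXI1, PDK1, PFKFB3 and PFKP added to the lower), 4 and 6 in plasma-like cells and 1 and 1 in mast- or basophil-like cells.

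**Figure D2:**
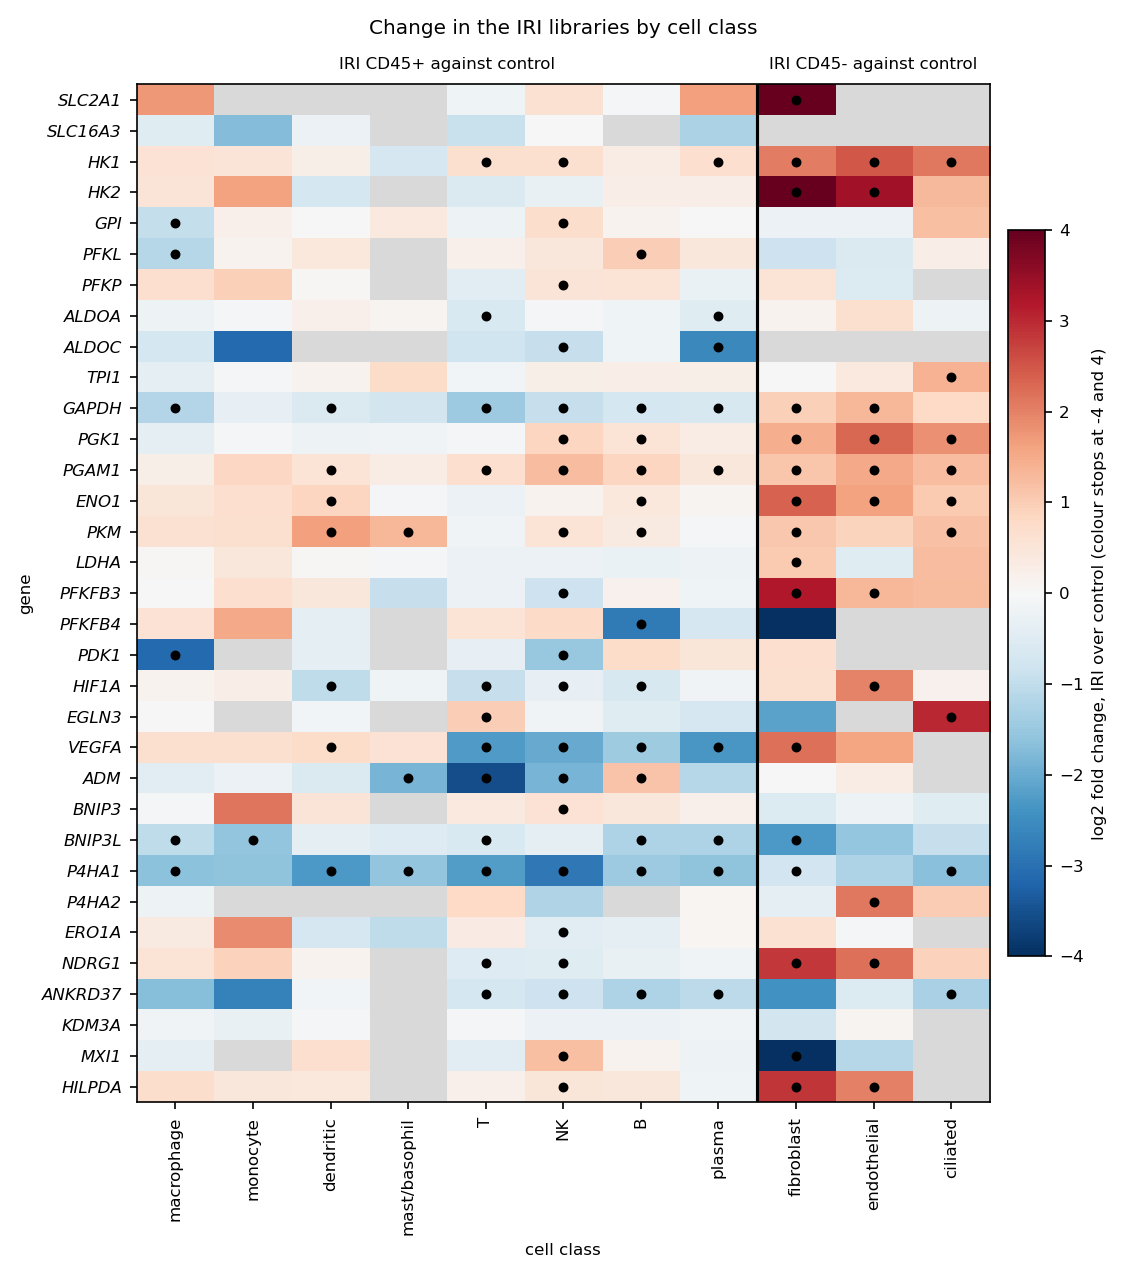
Rows are the 33 genes and columns 11 cell classes; colour is the log2 fold change of IRI over control, black points mark adjusted p under 0.05 and grey marks genes too low to test. P4HA1 is blue in all 11 columns, GAPDH is blue in the 8 immune columns and red in the 3 structural ones, and PGAM1 is red in all 11; the fibroblast MXI1 and PFKFB4 values rest on 0 graft UMIs.

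GAPDH (chromosome 5, 64129678 to 64135194 in RefSeq's Sscrofa11.1 annotation) was lower in IRI in 6 of 8 immune classes and had a negative fitted change in all 8. In macrophage-like cells it stood at 2056, 2169 and 1640 CPM in the controls and at 746 and 858 in CD45+ 1 and 2. All control values lay above both graft values, and the change was -1.16 ± 0.19 (adjusted p = 0.00109). In T-like cells it was 1321, 1401 and 1094 against 339 and 527, again without overlap, a change of -1.45 ± 0.17 (adjusted p = 2.6e-06). NK-like cells went from 934, 992 and 742 to 541 and 451, and plasma-like cells from 1297, 1361 and 1298 to 1038 and 796. The immune cells that were caught in the CD45- library, 393 T-like and 371 NK-like among them, had GAPDH at 475 and 566, also below every control. The 2 classes that did not pass the test were monocyte-like cells, at 1823 and 1160 against 861 and 1266, where the groups overlapped, and mast- or basophil-like cells, at 466, 786 and 482 against 378 and 419.

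PGAM1, the phosphoglycerate mutase (chromosome 14, 108822782 to 108832818), went the other way and rose in 5 of 8 immune classes. In NK-like cells it was 175, 185 and 161 in the controls and 446 and 409 in the graft, a change of 1.23 ± 0.11 (adjusted p = 7.69e-09). B-like cells went from 222, 245 and 218 to 449 and 403 (0.86 ± 0.13, adjusted p = 1.18e-05). T-like cells went from 157, 216 and 208 to 241 and 327 (0.66 ± 0.15, adjusted p = 0.0015). In each of these 3 classes both graft libraries exceeded all controls. In dendritic-like cells the call was lost without control 1 or control 3 (0.50 and 0.52, adjusted p = 0.056 and 0.058), and in plasma-like cells without control 1 or CD45+ 1 (0.40 and 0.35, adjusted p = 0.063 and 0.078).

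PKM, the pyruvate kinase, rose most in dendritic-like cells, from 185, 267 and 213 to 645 and 680 (1.65 ± 0.16, adjusted p = 2.12e-06), where both graft values were above every control value. It also rose in NK-like cells, from 240, 288 and 232 to 420 and 360, in B-like cells and in mast- or basophil-like cells. The call in mast- or basophil-like cells was lost without CD45+ 2, at 0.91 (adjusted p = 0.12), and the B-like call without control 1, control 3 or CD45+ 2, at 0.31, 0.33 and 0.34 (adjusted p = 0.086, 0.08 and 0.072). ENO1 rose in dendritic-like cells, from 393, 435 and 369 to 641 and 745 (0.87 ± 0.14), and in B-like cells (0.43 ± 0.13), where the call was lost without control 3 (0.34, adjusted p = 0.052). HK1, the housekeeping hexokinase, rose in T-like, NK-like and plasma-like cells by 0.64, 0.65 and 0.68, the last lost when any 1 library but CD45+ 2 was left out (0.26 to 0.70). PGK1 rose in NK-like cells, from 77.0, 103 and 75.7 to 172 and 154 (0.86 ± 0.15), and in B-like cells, from 96.1, 112 and 107 to 177 and 141 (0.55 ± 0.15). GPI, the glucose-6-phosphate isomerase, rose in NK-like cells, from 80.5, 72.8 and 59.97 to 121 and 122 (0.70 ± 0.15, adjusted p = 0.000438), and fell in macrophage-like cells, from 256, 240 and 222 to 97.9 and 131 (-0.95 ± 0.23). The macrophage-like call was lost without CD45+ 1 (-0.76, adjusted p = 0.055). PFKL, the liver-type phosphofructokinase, fell in macrophage-like cells, from 71.8, 83.0 and 81.3 to 32.6 and 32.7 (-1.15 ± 0.28). PFKP, the platelet type, rose in NK-like cells by 0.51 ± 0.18, a call lost without control 1 or CD45+ 1 (0.35 and 0.50).

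The aldolases fell where they changed. ALDOC fell in plasma-like cells, from 9.08, 12.6 and 14.6 to 2.11 and 2.15 (-2.58 ± 0.57), and in NK-like cells (-0.93 ± 0.26). ALDOA fell in T-like cells, from 169, 188 and 158 to 83.2 and 125 (-0.62 ± 0.16), a call lost without CD45+ 1 (-0.34, adjusted p = 0.089), and in plasma-like cells (-0.47 ± 0.14), lost without control 1, control 2 or CD45+ 2 (-0.47, -0.46 and -0.42). LDHA passed the test in none of the 8 immune classes, with fitted changes from -0.26 to 0.46. In macrophage-like cells it was 833, 788 and 667 against 824 and 629, and the groups overlapped.

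Among the regulators of glycolysis, PFKFB4 fell in B-like cells, from 68.5, 42.6 and 39.2 to 6.93 and 7.18 (-2.84 ± 0.31, adjusted p = 2.36e-07). The 421 B-like cells of the CD45- library held 7.005. PFKFB3 fell in NK-like cells, from 142, 155 and 161 to 101 and 76.7 (-0.84 ± 0.14, adjusted p = 3.35e-05). PDK1, a kinase that blocks pyruvate dehydrogenase, fell in NK-like cells (-1.51 ± 0.31) and in macrophage-like cells (-3.12 ± 0.99, adjusted p = 0.0339), where CD45+ 1 held none and CD45+ 2 held 2.72 CPM. The macrophage-like call was lost when any single library other than CD45+ 2 was left out, and the change was then -2.00 to -3.16 (adjusted p = 0.051 to 0.18).

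**Figure D3:**
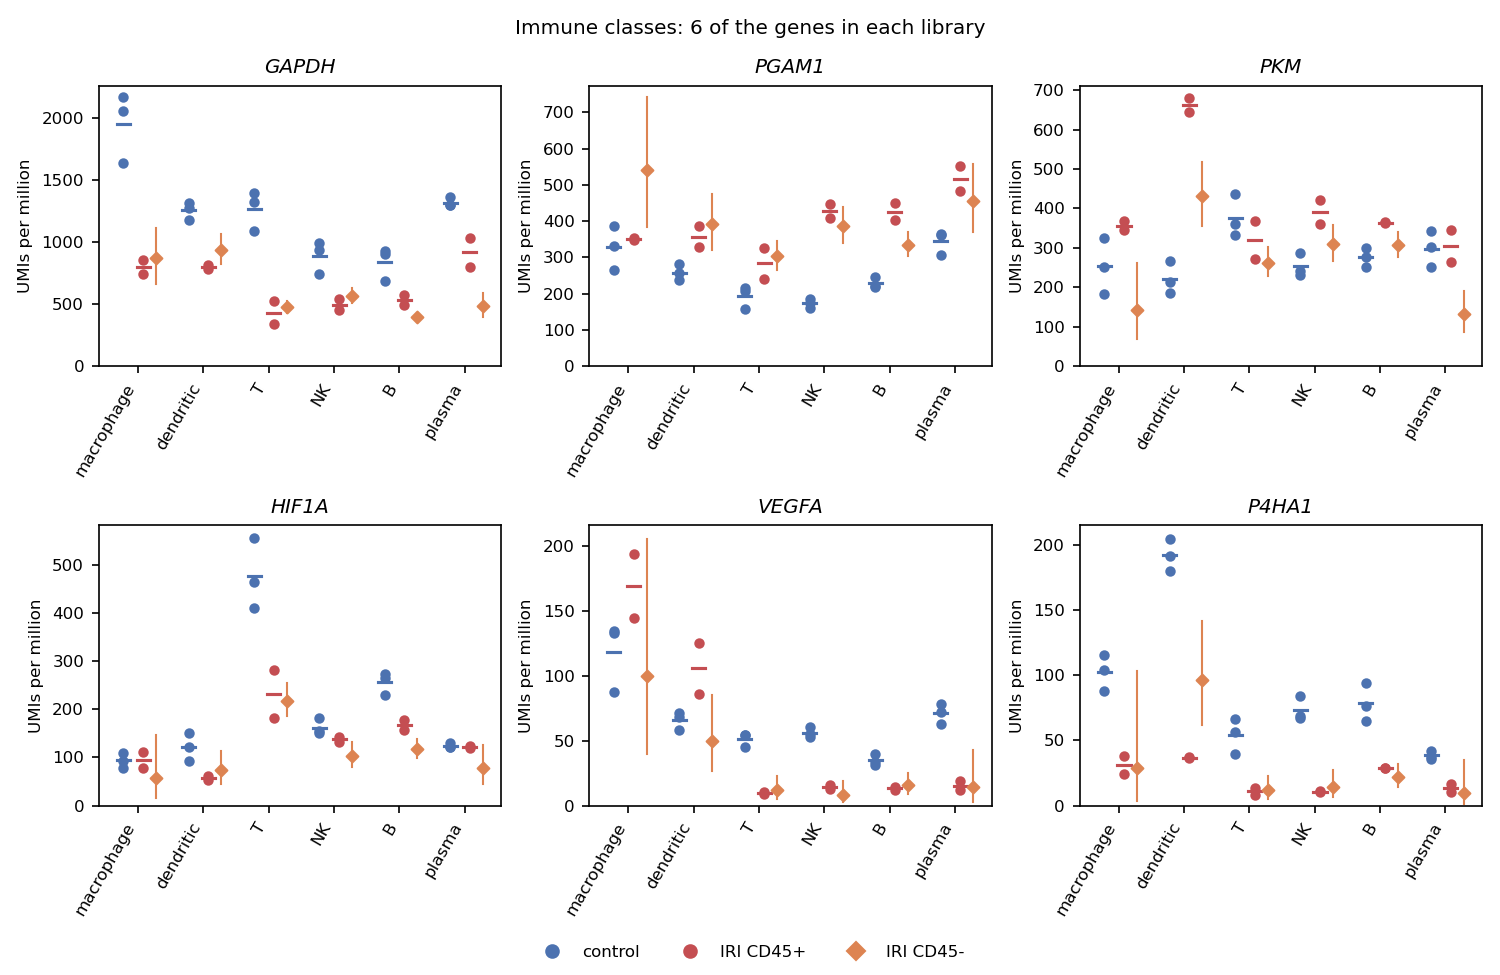
Each point is 1 library's level in CPM for 6 genes in 6 immune classes; bars are means of the 3 control or 2 IRI CD45+ libraries, and diamonds with lines are the immune cells of the single IRI CD45- library with an exact 95% Poisson interval. GAPDH and P4HA1 are lower in both CD45+ libraries than in every control in all 6 classes, VEGFA is lower in the 4 lymphoid classes, and PKM is highest in dendritic-like graft cells.

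Among HIF and its regulators, HIF1A fell in T-like cells, from 465, 555 and 410 to 182 and 282 (-0.93 ± 0.17, adjusted p = 0.000251). It also fell in B-like cells, from 274, 265 and 229 to 158 and 179, and in dendritic-like cells, from 92.3, 122 and 151 to 61.4 and 53.1. No graft value reached a control value in these 3 classes. The NK-like change was small at -0.31 ± 0.13 (adjusted p = 0.0439) and was lost without control 2, CD45+ 1 or CD45+ 2 (-0.28, -0.24 and -0.34, adjusted p = 0.11, 0.24 and 0.075). EGLN3 rose in T-like cells alone among 6 immune classes tested, from 21.6, 19.4 and 24.8 to 34.9 and 44.4 (0.97 ± 0.22, adjusted p = 0.00107), and whether its change differed between the classes was not tested.

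VEGFA, the vascular growth factor (chromosome 7, 38746393 to 38762282), fell in all 4 lymphoid classes. In T-like cells it was 45.5, 54.7 and 54.1 in the controls and 9.12 and 10.7 in the graft (-2.27 ± 0.23, adjusted p = 1.99e-07). In NK-like cells it went from 53.2, 60.3 and 54.8 to 15.9 and 13.0, and in plasma-like cells from 71.99, 78.6 and 63.1 to 19.0 and 11.8. Every graft value lay below every control value in these classes. In dendritic-like cells VEGFA rose, from 58.4, 71.5 and 68.1 to 125 and 86.3 (0.73 ± 0.22, adjusted p = 0.0177), but the call was lost without control 1, control 3 or CD45+ 1 (0.67, 0.74 and 0.48, adjusted p = 0.065, 0.055 and 0.14). Macrophage-like cells held 87.4, 133 and 134 against 194 and 144, which did not pass the test. The macrophage-like change exceeded the T-like one by 2.84 ± 0.33 for VEGFA and 2.07 ± 0.29 for ADM (limma on each library's own difference of log2 values, without a block, adjusted p = 0.0191 and 0.0244). These were the 2 of 33 genes called in that test of the difference, in which 1.76% of 9462 genes were called higher and 5.25% lower, and both calls were lost without any 1 control.

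ADM fell in T-like cells, from 5.69, 7.59 and 5.73 to 0.388 and 0.595 (-3.54 ± 0.66, adjusted p = 0.000225). It also fell in NK-like cells, at 1.76, 5.17 and 9.25 against 0.885 and 2.59 (-1.87 ± 0.70), where the groups overlapped and the call was lost without CD45+ 1 (-1.13, adjusted p = 0.27). In T-like cells ADM was too low to test with sums thinned to the smallest or called doublets kept. The same held in NK-like cells with thinned sums, without control 2 or control 3, or with top-scoring doublets removed. ADM rose in B-like cells, from 12.5, 5.94 and 8.90 to 20.01 and 19.4 (1.14 ± 0.36, adjusted p = 0.0124), a call lost without control 2 (0.81, adjusted p = 0.11). In mast- or basophil-like cells it fell, from 193, 88.2 and 96.4 to 27.45 and 55.8 (-1.84 ± 0.62, adjusted p = 0.0278), and was lost without control 1 or CD45+ 1 (-1.52 and -1.21). BNIP3L, a receptor for the removal of mitochondria, fell in 5 of 8 immune classes and had a negative change in all 8. Its T-like call (-0.60) was lost without control 1, CD45+ 1 or CD45+ 2 (-0.55, -0.60 and -0.57, edgeR adjusted p = 0.053, 0.052 and 0.052). Its largest change was in monocyte-like cells, from 232 and 148 to 57.7 and 56.3 (-1.58 ± 0.41, adjusted p = 0.032), where it was the single gene called (all monocyte-like cells lie in cluster 8, with a mean log2 marker fold of 2.09 for the monocyte and 1.74 for the neutrophil list) and was lost without control 1, control 2 or CD45+ 1 (-0.96, -1.60 and -1.61, adjusted p = 0.32, 0.08 and 0.058). In B-like cells it went from 50.7, 42.6 and 29.4 to 16.5 and 19.0 (-1.24 ± 0.27). In macrophage-like cells it went from 75.6, 69.5 and 73.3 to 26.1 and 40.8 (-1.02 ± 0.30), a call lost without any 1 control or CD45+ 1 (-0.72 to -1.03), and in plasma-like cells from 40.7, 49.0 and 31.4 to 15.8 and 21.5 (-1.24 ± 0.30), lost without CD45+ 1 (-1.04). BNIP3, its relative, rose in NK-like cells, from 22.4, 25.5 and 25.7 to 36.6 and 42.0 (0.59 ± 0.20, adjusted p = 0.0169), a call lost without control 1, control 2 or CD45+ 2 (0.49, 0.56 and 0.53).

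P4HA1, the second collagen prolyl 4-hydroxylase (chromosome 14, 75827207 to 75919121), fell in 7 of 8 immune classes. NK-like cells held 67.3, 69.0 and 84.3 in the controls and 10.6 and 10.9 in the graft (-2.84 ± 0.22, adjusted p = 4.1e-10). Dendritic-like cells held 191, 180 and 205 against 37.3 and 36.5 (-2.30 ± 0.22, adjusted p = 2.14e-06), and T-like cells 66.6, 56.2 and 39.4 against 8.34 and 13.4 (-2.24 ± 0.27). The control and graft libraries did not overlap in any of the 3. Its change in the 8 classes lay between -2.84 and -1.46, and in mast- or basophil-like cells the call was lost without control 3 or CD45+ 2 (-1.27 and -1.23, adjusted p = 0.12 and 0.068). Immune cells of the CD45- library were low as well, at 14.4 in NK-like and 11.9 in T-like cells. P4HA2 passed the test in none of the 4 immune classes in which it could be tested, and ERO1A, an oxidase that forms disulfide bonds, in NK-like cells alone of 8 (-0.45). That call was lost without control 3, CD45+ 1 or CD45+ 2 (-0.35, -0.48 and -0.37, edgeR adjusted p = 0.10, 0.068 and 0.12). In T-like cells ERO1A was at 55.8, 74.8 and 78.9 against 85.7 and 76.2, and the groups overlapped.

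ANKRD37, a small ankyrin protein induced by HIF, fell in T-like, NK-like, B-like and plasma-like cells, by 0.69, 0.83, 1.22 and 1.06 on the log2 scale. In plasma-like cells it went from 81.5, 83.9 and 73.1 to 43.3 and 39.8, without overlap. The T-like call was lost without control 1 or CD45+ 1 (-0.55 and -0.39, adjusted p = 0.12 and 0.27). NDRG1 fell in T-like cells, from 105, 97.2 and 106 to 59.7 and 72.04 (-0.53 ± 0.16), and in NK-like cells (-0.47 ± 0.16), and both calls were lost without CD45+ 1 (-0.39 and -0.22). HILPDA rose in NK-like cells, from 31.2, 42.4 and 35.6 to 54.6 and 52.9 (0.49 ± 0.18), a call lost without control 1, control 3 or CD45+ 1 (0.35, 0.43 and 0.48). KDM3A, a histone demethylase, passed the test in none of 7 immune classes, with changes from -0.31 to -0.07. MXI1 rose in NK-like cells, from 15.4, 19.7 and 27.1 to 60.8 and 39.4 (1.21 ± 0.23, adjusted p = 0.000141), and both graft libraries were above all controls. In macrophage-like cells the graft class was small, 38 and 41 cells against 249, 404 and 409, and its 6 calls (GAPDH, P4HA1, GPI, PFKL, BNIP3L and PDK1, all lower) did not hold under a stricter filter on cells. With that filter no cluster was named monocyte-like, and the macrophage-like class held 35 and 166 cells in CD45+ 1 and 2. Then 10 genes were higher and 0 lower, and the share of all genes called under that filter is not given here. The class was thus in part made up of other cells, and whether this moved the calls was not tested.

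The summed level of the 12 HIF targets outside glycolysis was lower in the graft in every lymphoid class, for instance 501, 504 and 524 in control T-like cells against 351 and 355. Plasma-like cells held 502, 536 and 501 against 395 and 370. The summed glycolytic enzymes were lower in graft T-like cells, at 1886 and 2598 against 3365, 3664 and 2958, and lay at 3165 and 3036 against 2875, 3053 and 2540 in NK-like cells, where they overlapped. Without GAPDH the T-like sums were 1547 and 2072 against 2044, 2263 and 1865, so that those groups overlapped, and the NK-like sums were 2624 and 2585 against 1941, 2061 and 1798, so that these no longer did.

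**Figure D4:**
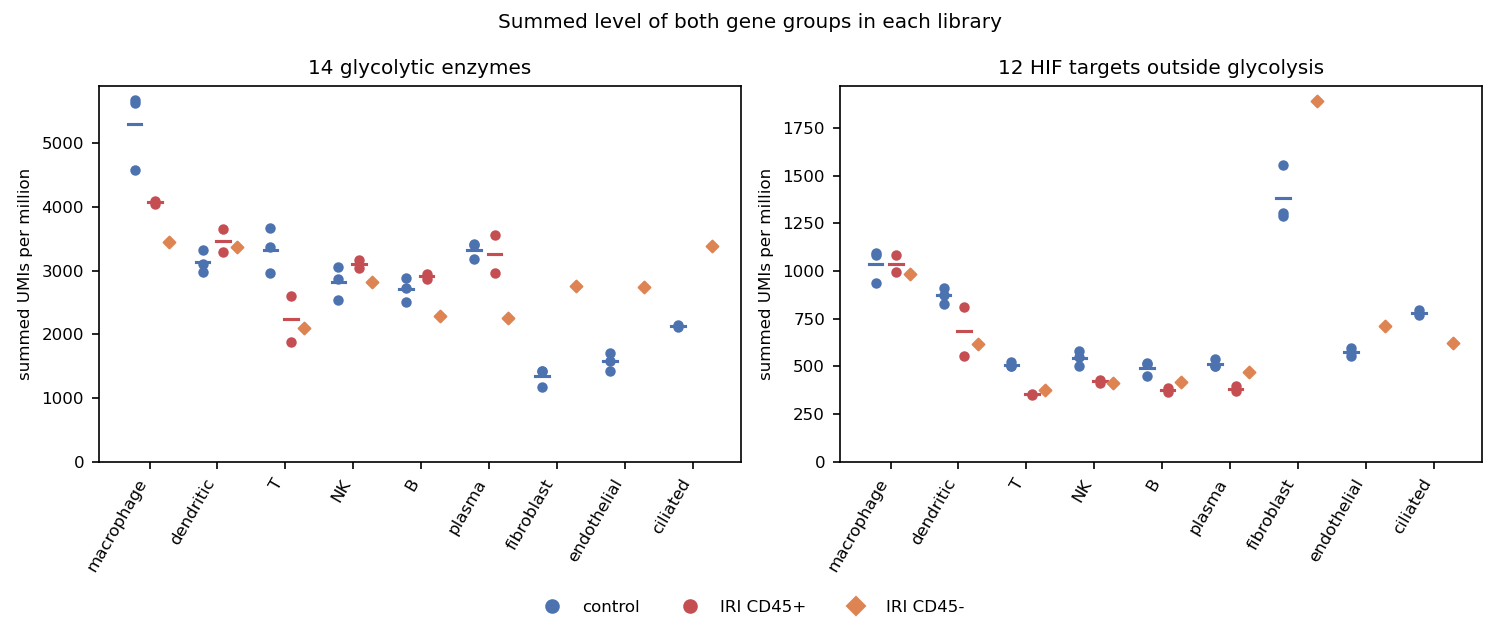
Summed CPM of the 14 glycolytic enzymes (left) and of 12 HIF targets outside glycolysis (right) by class; points are libraries, bars the means of 3 controls (2 for ciliated-like cells) or 2 IRI CD45+ libraries, diamonds the IRI CD45- library. The 3 structural classes lie higher in the graft for glycolytic enzymes, and the 4 lymphoid classes lie lower in both CD45+ libraries for the other HIF targets.

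In 3 structural classes of the graft, about as many glycolytic genes rose as did not pass the test, and none fell. Each of these comparisons sets 1 CD45- library against 2 or 3 controls, and the test assumes that the lone library varies as the controls do. In fibroblast-like cells 13 of 31 tested genes rose and 3 fell, beside 15.8% and 18.1% of 12977 genes, and the median log2 change was 0.62 for the 31 and -0.41 for all genes. In endothelial-like cells 11 of 27 rose and 0 fell (17.0% and 12.1% of 7674 genes), with medians of 0.65 and -0.07. In ciliated-like cells 7 of 21 rose and 2 fell (14.6% and 9.25% of 5212 genes), with medians of 1.04 and -0.06. Genes of glycolysis, transport and their regulation accounted for 10 of the 13 in fibroblast-like cells, where 17 such genes were tested, for 7 of the 11 in endothelial-like cells, of 14 tested, and for 6 of the 7 in ciliated-like cells, of 13 tested. Without TMM scaling the counts were 10 higher and 2 lower in endothelial-like cells, the 2 being BNIP3L and P4HA1, and 3 and 2 in ciliated-like cells, where the median of all genes moved to -0.47.

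Several measured features of the CD45- library move with these comparisons. SFTPC, the surfactant protein of AT2 cells, stood at 118016 CPM in AT2-like cells, 41931 in endothelial-like, 17913 in ciliated-like and 11017 in fibroblast-like graft cells, and at 0 to 189 in the same classes of the controls. The fibroblast-like class was thus at 9.34% of the AT2-like SFTPC level, the ciliated-like class at 15.2% and the endothelial-like class at 35.5%. Each AT2-like gene level times that share is given below as the scaled AT2-like level, and its part in the changes was not tested. Markers of the classes themselves were lower in the graft: the 13 fibroblast markers summed to 23249 against 68283 to 90130, and the 13 endothelial markers to 4428 against 8774 to 10471, with all of them detected. Graft endothelial-like cells also held CCL21, a gene of lymphatic vessels, at 3141 against 0, 4.21 and 23.1 in control endothelial-like cells, and the 7 lymphatic markers measured summed to 4515 against 319 to 746. Whether lymphatic cells or carried-over RNA gave these counts was not tested. Cluster 20 had a mean log2 marker fold of 2.46 for the endothelial and 1.91 for the lymphatic list. With the stricter cell filter, the genes used for clustering or top-scoring doublets removed, 125, 14 and 6 graft cells were named endothelial-like, not 650. Lymphatic endothelial-like graft cells then numbered 90, 172 and 170, not 1. With finer clustering the numbers were 653 and 1. Of the 304 graft fibroblast-like cells, 188 lay in cluster 15.2, whose mean log2 marker fold was 1.83 for the fibroblast list and 1.56 for the erythroid list, of which 2 of 9 genes were measured. Without that cluster 12 genes rose and 2 fell, and GAPDH (0.58, adjusted p = 0.14) and P4HA1 (-0.67, adjusted p = 0.098) no longer passed, in an alternative added after the data were seen. Median depth of the graft cells was 1198.5 UMIs in the fibroblast-like and 1102.0 in the endothelial-like class. A further 389 graft cells, scored nearest to smooth muscle or pericytes, stayed unnamed.

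HK2 (chromosome 3, 68155656 to 68231187) had the smallest p in fibroblast-like cells. It stood at 16.4, 11.2 and 14.4 CPM in the controls and at 265 (95% exact Poisson interval 222 to 315, which covers counting error only) in the graft. The graft value was above every control, the change was 4.49 ± 0.24 (adjusted p = 1.31e-07), and the scaled AT2-like level was 18.5. SLC2A1, the main glucose carrier of most tissues, was at 0.862, 0.953 and 0.346 against 28.1 (15.4 to 47.2), a change of 5.55 ± 0.88 (adjusted p = 0.000459) with 14 UMIs in the graft and 7 in all controls. ENO1 was at 131, 146 and 107 against 573 (2.35 ± 0.22, adjusted p = 8.08e-06). PFKFB3 was at 25.0, 33.8 and 30.1 against 247 (3.22 ± 0.22, adjusted p = 8.41e-07), with a scaled AT2-like level of 4.57. PGK1, HK1, PKM, PGAM1, LDHA and GAPDH also rose, by 1.45, 2.04, 1.07, 1.11, 1.05 and 0.96. GAPDH, at 494, 445 and 339 against 730, passed the test here in the opposite direction to 6 immune classes, with the loss of the call without cluster 15.2 given above.

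Outside glycolysis, NDRG1 (chromosome 4, 8014445 to 8069335) stood at 116, 103 and 109 in control fibroblast-like cells and at 678 (607 to 754) in the graft, a change of 2.82 ± 0.19 (adjusted p = 6.49e-07). HILPDA, a protein of lipid droplets, went from 32.8, 41.2 and 30.1 to 223 (2.87 ± 0.24, adjusted p = 3.83e-06). VEGFA went from 27.6, 36.2 and 28.4 to 125 (2.19 ± 0.27, adjusted p = 6.41e-05). All 3 lay above every control, and their scaled AT2-like levels were 9.28, 9.21 and 3.23. ADM, already high in controls, was at 561 against 545, 782 and 544 and did not pass the test. BNIP3L fell, from 74.2, 77.5 and 82.3 to 14.1 (-2.28 ± 0.37), and P4HA1 fell, from 199, 188 and 188 to 98.5 (-0.77 ± 0.24, adjusted p = 0.0282). MXI1 was at 25.9, 42.7 and 42.6 in the controls (455 UMIs) with no UMI in the graft, so it was at least 6.78-fold lower when 3 counts over the class are taken as the floor. PFKFB4, with 102 control UMIs and none in the graft, was at least 1.52-fold lower by the same floor and was not called.

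In endothelial-like cells HK1 (chromosome 14, 72383328 to 72460927) went from 55.3, 122 and 92.3 to 389 (352 to 429), a change of 2.48 ± 0.37 (adjusted p = 3.04e-06). The graft value was above every control endothelial-like library and above control lymphatic endothelial-like cells, at 39.0, 86.6 and 60.9. NDRG1 went from 82.9, 75.8 and 63.5 to 256 (2.19 ± 0.38, adjusted p = 2.5e-05) and HIF1A from 82.9, 135 and 78.8 to 295 (1.98 ± 0.38, adjusted p = 0.000101). Control lymphatic endothelial-like cells held HIF1A at 239, 118 and 113, also below the graft value. PGK1 went from 64.5, 59.0 and 32.7 to 185, and ENO1 from 134, 202 and 194 to 414. GAPDH and PFKFB3 rose by 1.34 each, GAPDH from 217, 506 and 411 to 744 and PFKFB3 from 87.5, 71.6 and 106 to 175. PGAM1 and HILPDA rose by 1.53 ± 0.41 and 2.01 ± 0.48, HILPDA from 18.4, 42.1 and 34.6 to 101. The scaled AT2-like levels were 53.4 for HK1, 35.3 for NDRG1, 34.3 for HIF1A, 53.2 for PGK1 and 125 for ENO1. HK2 went from 0, 12.6 and 17.3 to 94.5 (3.36 ± 0.58), but its scaled AT2-like level was 70.4, or 74.5% of the class value. For PGAM1 that share was 50.7%, for P4HA2 48.4% and for HILPDA 34.7%. P4HA2 lost its call without control 3 (1.78, adjusted p = 0.083), and DESeq2 called 7 genes in this class.

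Ciliated-like cells had 24 and 49 control cells against 1191 in the graft, and DESeq2 called 0 of 21 genes there. HK1 went from 53.6 and 125 to 313 (2.10 ± 0.42, adjusted p = 1.14e-05), above both controls. TPI1, the triose-phosphate isomerase, went from 295 and 315 to 620 (1.38 ± 0.38, adjusted p = 0.00297). EGLN3 went from 26.8 and 5.44 to 87.4 (3.00 ± 0.80, adjusted p = 0.00161). Their scaled AT2-like levels were 22.8, 18.9 and 2.65. PGK1, PGAM1, PKM and ENO1 rose by 1.83 ± 0.55, 1.23 ± 0.41, 1.18 ± 0.40 and 1.04 ± 0.38. All but ENO1 lay well above both controls, and ENO1 was at 413 against 357 and 169. No library could be left out of the ciliated-like comparison, since too few would remain. P4HA1 fell, from 152 and 97.9 to 29.7 (-1.68 ± 0.56), and ANKRD37 fell, from 89.3 and 266 to 58.6 (-1.30 ± 0.49), and for ANKRD37 the 2 controls lay far apart.

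**Figure D5:**
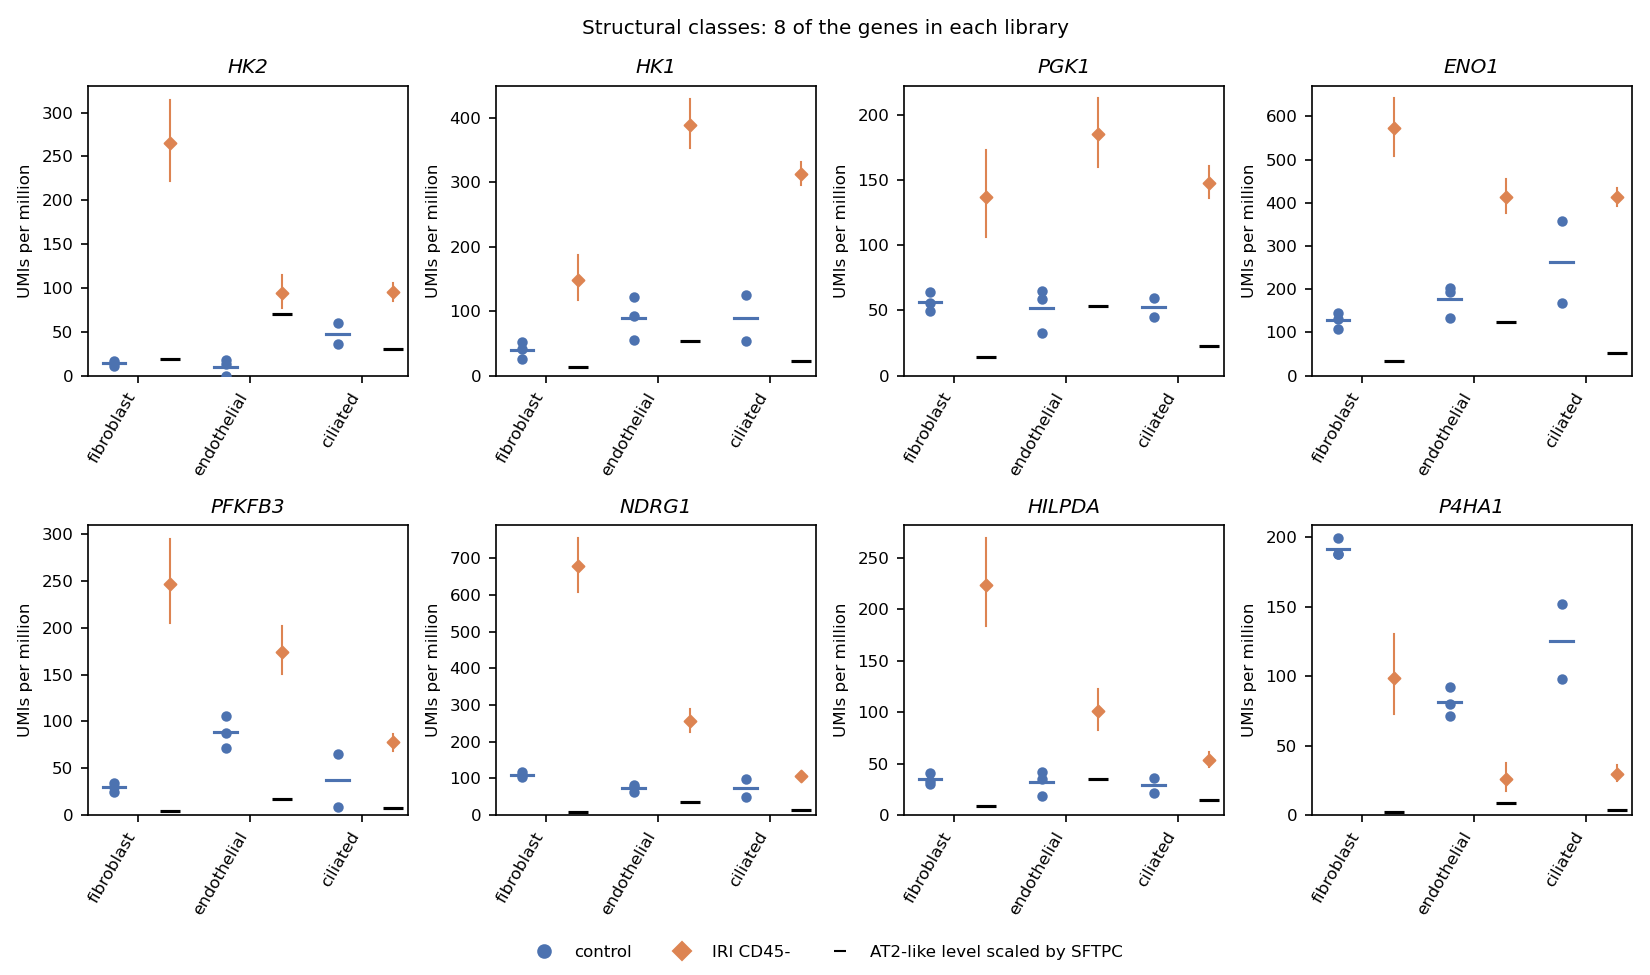
Levels in CPM of 8 genes in 3 structural classes: blue points are control libraries with their mean, orange diamonds the single IRI CD45- library with an exact 95% Poisson interval, and black dashes the AT2-like level scaled by SFTPC. HK2, PFKFB3, NDRG1 and HILPDA stand far above the controls in fibroblast-like cells, the dash lies close to the diamond for endothelial HK2, and P4HA1 is lower in the graft in all 3 classes.

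The change in fibroblast-like cells was set against the change in T-like and NK-like cells of the same CD45- library, which went through the same sort. Median depth was 1652.0 UMIs in its T-like and 1286.0 in its NK-like cells, and the 2 erythroid genes measured summed to 5630 CPM in the T-like, 270 in the NK-like and 1120 in the fibroblast-like cells. The fibroblast-like change exceeded the T-like one for 14 of 31 genes and was below it for 5, beside 15.9% and 19.9% of 9733 genes. The median difference was 0.97 for the 31 genes and -0.11 for all genes. Against NK-like cells 13 were above and 7 below (17.1% and 19.2% of 10842 genes). VEGFA differed by 4.06 ± 0.35 against T-like and 4.93 ± 0.31 against NK-like cells (limma, adjusted p = 0.00457 and 0.0057). HK2 differed by 3.5001 ± 0.34 and 3.31 ± 0.34, PFKFB3 by 3.90 ± 0.39 and 4.40 ± 0.31, NDRG1 by 2.85 ± 0.32 and 3.01 ± 0.33, and GAPDH by 2.25 ± 0.33 and 1.68 ± 0.31. Without control 3 the counts of calls fell to 12 and 11. For endothelial-like cells limma called 0 of 27 genes against T-like cells, where 12 had an unadjusted p under 0.05 and 0 of all genes were called. Against NK-like cells it called VEGFA (4.14 ± 0.51, adjusted p = 0.0405), beside 0.626% of 7186 genes, and that call was lost without control 1. These tests were added after the changes in single classes had been seen.

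Within the CD45- library itself, the summed glycolytic enzymes stood at 2476 in the structural and 3236 in the immune sum, closer than in any control. The structural sum there was mostly AT2-like cells, with 8429 of 12334 cells, so the classes it is made of differ from those of the controls. By class, the highest sum in that library was that of monocyte-like cells at 5702. Macrophage-like cells (22 cells) followed at 3450, neutrophil-like cells at 3395, ciliated-like cells at 3389 and dendritic-like cells at 3364. Secretory-like cells held 2912, fibroblast-like cells 2762, endothelial-like cells 2751, AT2-like cells 2212 and AT1-like cells 1617. These are values of 1 library with no replicate. The secretory-like cells lay in cluster 10, whose mean log2 marker fold was 3.20 for the secretory and 2.48 for the basal list. Finer clustering named 1007 graft cells secretory-like, not 1457, and 451 basal-like.

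AT1-like graft cells, 285 in number and shallow at a median of 781 UMIs, had VEGFA at 777 (673 to 893) CPM, against 34.6 (32.2 to 37.1) in AT2-like cells. They also had PFKFB3 at 312 (248 to 389) against 49.0, NDRG1 at 406 (332 to 492) against 99.4, and ADM at 172 (125 to 231) against 31.8. None of these intervals touched the AT2-like value. AT2-like cells were the higher of the pair for HK2, at 198 against 121 (82.3 to 172), and for HILPDA, at 98.7 against 15.6 (4.26 to 40.0). Among the structural classes SLC2A1 was highest in ciliated-like cells at 29.1, with fibroblast-like cells at 28.1, secretory-like cells at 25.7 and AT1-like cells at 19.5, and the intervals of these 4 overlapped. It was 6.99 in AT2-like cells.

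Genes of the same pathway that were not among the 34 were read from lists. Among the other HIF targets, JMJD6, a hydroxylase, and CITED2, a competitor of HIF for its coactivator, fell in all 8 immune classes, and WSB1, a ubiquitin ligase subunit, in 7 of them. In NK-like cells 4 of 21 rose and 12 fell (26.2% and 30.3% of all genes), and JMJD6 changed by -3.86 ± 0.17 (adjusted p = 1.6e-14) and WSB1 by -2.00 ± 0.12 (adjusted p = 3.7e-12). In T-like cells 2 of 22 rose and 11 fell (25.1% and 27.2%), with JMJD6 at -3.92 ± 0.21, and in B-like cells 1 of 19 rose and 9 fell (21.4% and 25.0%). CITED2 changed by -1.78, -2.499 and -2.33 in NK-like, B-like and plasma-like cells. In fibroblast-like cells 7 of 27 rose and 7 fell (15.8% and 18.1%). Of these, PLAUR, the urokinase receptor, rose by 2.94 ± 0.22, and ADORA2B, an adenosine receptor, by 4.04 ± 0.37.

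The list on pyruvate entry to mitochondria pools carriers and enzymes of that step with kinases that block pyruvate dehydrogenase. In fibroblast-like cells 1 of its 11 genes rose and 5 fell, beside 15.8% and 18.1% of all genes. PDK4, which is such a blocking kinase, was among those that fell (-4.32 ± 0.43, edgeR adjusted p = 1.4e-05). The 6 genes of the pentose phosphate path were all higher in myeloid than lymphoid classes of the controls (32.3% of all genes), with TKT at 3.03 ± 0.09, PGD at 3.38 ± 0.12 and TALDO1 at 2.58 ± 0.09. In the IRI CD45+ libraries 4 of the 6 were higher (22.9%). All 6 were lower in structural than in immune sums of the controls (31.5%), with a median difference of -1.22. In macrophage-like cells 3 of the 6 fell (16.5%), TKT by 1.76 on the log2 scale. Of the HIF machinery, EPAS1, which encodes HIF-2 alpha, rose in dendritic-like (1.06 ± 0.19), fibroblast-like (2.79 ± 0.36) and ciliated-like cells (1.41 ± 0.38) and fell in B-like, plasma-like and endothelial-like cells (-1.74, -2.08 and -1.51). ARNT, the partner subunit of HIF, fell in macrophage-like cells (-2.97 ± 0.72, adjusted p = 0.0103).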

How the data were processed

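The deposited matrices hold UMI counts per gene and cell, written by PISA per the file headers. The submitters' processing notes name Sscrofa11.1, Seurat 5.5.3 and R 4.2.2, and no aligner is named. Cells with at least 500 UMIs, 200 genes and at most 20% mitochondrial UMIs were kept and clustered with scanpy 1.11.5 (2000 variable genes without the genes reported or the pathway lists, 30 components, 15 neighbours, resolution 1.0). Mitochondrial genes were listed in the controls only. Clusters were named from marker lists, and 16 of 48 stayed unnamed. Scrublet called 0 to 37 cells a library, too few to have worked, so doublets were in effect not removed. Cell names are running numbers, and 8874 of 20587 distinct names occur in more than 1 library.

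Counts were summed per class and library (at least 20 cells) and tested with edgeR 4.0.16 (quasi-likelihood, TMM, R 4.3.3), differences between classes with limma 3.58.1, adjusted over all tested genes. DESeq2 1.42.0, other filters, scalings and clusterings, and leaving out 1 library at a time where enough remained were alternatives. Scripts were tested on simulated data. Genes and lists were chosen with earlier results of these data known. Named with values are the called genes of a comparison (beyond 8, those with the smallest p), the members with the highest levels or widest range over classes, at least 1 member of each role, and, from the other lists, genes among the 4 of a list with the smallest p in some comparison, given in further classes too. Deviations of single control and IRI CD45+ libraries from their group means had correlations of -0.068 to 0.068 in T-like, NK-like, B-like and macrophage-like cells. The deviations of 2 IRI CD45+ libraries mirror each other by construction. These values therefore do not settle whether same-numbered libraries were paired. One gene of the other lists is not reported here.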

Additional observations from a re-analysis of the deposited data

Results flagged for a closer look

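For 42 results the change from control to IRI differed between 2 cell classes by a test of the difference itself (limma on log2 values, adjusted over all genes). In macrophage-like minus T-like cells these were ADM (2.07) and VEGFA (2.84). The other 40 rest on the single IRI CD45- library, in which both classes of each pair went through the same sort, and were added after the changes in single classes had been seen.

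In fibroblast-like minus T-like cells, genes of glycolysis with a positive difference were SLC2A1 (7.22), PFKFB3 (3.90), HK2 (3.5001), ENO1 (2.73), GAPDH (2.25), HK1 (1.64), LDHA (1.45), PKM (1.44), PGK1 (1.30) and ALDOA (1.18). Genes outside glycolysis were VEGFA (4.06), NDRG1 (2.85), HILPDA (1.95) and HIF1A (1.63). Those with a negative difference were MXI1 (-5.56), PFKFB4 (-5.19), EGLN3 (-2.01), P4HA2 (-1.86) and ANKRD37 (-1.35).

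In fibroblast-like minus NK-like cells the positive differences were those of VEGFA (4.93), PFKFB3 (4.40), SLC2A1 (4.18), HK2 (3.31), NDRG1 (3.01), ENO1 (2.46), HILPDA (2.43), HK1 (1.76), GAPDH (1.68), P4HA1 (1.57), LDHA (1.39), HIF1A (1.35) and ERO1A (1.23). A positive difference is not always a rise, since P4HA1 fell in fibroblast-like cells. The negative differences were those of MXI1 (-6.99), PFKFB4 (-4.15), P4HA2 (-1.95), PFKL (-1.73), BNIP3 (-1.46), EGLN3 (-1.39) and BNIP3L (-1.22). In endothelial-like minus NK-like cells VEGFA differed by 4.14. The MXI1 and PFKFB4 values rest on 0 UMIs in graft fibroblast-like cells, so their size depends on the prior count.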

How the results depend on the processing

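Values of called genes kept direction and call in 2068 of 2327 alternatives, kept direction only in 256 and changed sign in 3. The 3 were ERO1A in NK-like cells with T-like and NK-like cells pooled (0.045), GPI between myeloid and lymphoid CD45+ cells without TMM (-0.022), and TPI1 between myeloid and lymphoid control cells, which ran from -0.15 to 0.37 when 1 control was left out. For TPI1, the value of -0.15 came without control 3, when the monocyte-like class joined the myeloid side. The cause of the sign changes was not tested.

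Counts of called genes moved by more than 1.5 times in these cases. Macrophage-like cells (6) gave 10 with a stricter cell filter, 10 with finer clustering and 10 with called doublets kept. Monocyte-like cells (1) gave 9 with no filter on low counts, 2 with finer clustering, 2 with the genes used for clustering and 4 with CD45- immune cells added, and 1 to 6 with 1 library left out. T-like cells (12) gave 20 when pooled with NK-like cells. Endothelial-like cells (11) gave 7 with DESeq2. Ciliated-like cells (9) gave 5 without TMM, 0 with DESeq2 and 3 with sums thinned to the smallest. With 1 library left out, the difference of macrophage-like and T-like cells (2) gave 0 to 6, fibroblast-like against T-like (19) 12 to 20, against NK-like (20) 11 to 20, and endothelial-like against NK-like (1) 0 to 2. The last gave 0 with a prior count of 0.5 and 0 without TMM.

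With the replicate number as a block, which the labels do not tie to a shared animal, monocyte-like cells gave 3, mast- or basophil-like cells 1 and the macrophage-like minus T-like difference 0. The block gave 4 in macrophage-like, 5 in dendritic-like, 13 in T-like, 17 in NK-like, 11 in B-like and 8 in plasma-like cells. The stricter filter left no monocyte-like or ciliated-like comparison, and leaving out clusters near a tie between 2 marker lists left no monocyte-like one. Clustering with the genes and removing top-scoring doublets each left no endothelial-like one, and promoter motifs were not run. No library could be left out of the ciliated-like comparison, nor the lone CD45- library out of any that rests on it. Leaving out 1 library was not run for the myeloid-lymphoid contrast of the IRI CD45+ libraries. Tested sums were as low as 62192 UMIs in mast- or basophil-like and 74126 in monocyte-like cells of single controls, which limits what could be called there.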
